A study of Mus musculus with 8 samples.

Results

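The genes described here belong to the transforming growth factor beta (TGF-beta) pathway: the ligand gene Tgfb1, the receptor genes Tgfbr1, Tgfbr2 and Tgfbr3, the signal transducer Smad3, the inhibitory Smad7 and the co-repressor genes Ski and Skil. They are 8 of the 33696 genes counted, were matched by symbol, and were followed across leukocyte classes and by genotype. The genes were chosen by their levels by class and by genotype in these same cells, so those levels are given as a description, with no p-value. The samples were leukocytes of liver metastases that grew for 30 days after Venus-AKTPM/LOH colorectal cancer cells were injected into the spleen. The knockout group was 2 Vav1CreTet2KO mice, in which Cre recombinase driven by Vav1 removes floxed Tet2 across the blood lineages. The control group was 2 Tet2fl/fl mice, which carry the floxed allele with no Cre named in the labels. Tet2 encodes an enzyme that oxidises 5-methylcytosine, a step in DNA demethylation. The age and sex of the mice are not given here. Live CD45+ cells were sorted from digested tissue, and each mouse gave 1 library of RNA 5' ends for gene expression and 1 T cell receptor library.

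TGF-beta ligands are secreted in a latent complex and must be released before they bind. The freed ligand binds TGFBR2, which recruits and phosphorylates TGFBR1, and TGFBR1 phosphorylates SMAD2 and SMAD3, which enter the nucleus with SMAD4 and change transcription. TGFBR3, also called betaglycan, is a co-receptor with no kinase activity that presents ligand. SMAD7 is induced by the pathway and blocks it at the receptor, and SKI and its relative SKIL (SnoN) bind SMAD complexes in the nucleus and hold their targets down. In tumours the pathway is known for restraining cytotoxic T cells and NK cells and for shaping macrophages and neutrophils.

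The libraries held 57190926 and 60456627 unique molecular identifiers (UMIs, counted RNA molecules) in the knockout mice, against 89945864 and 91789597 in the control mice, over 10432 and 11123 cells kept, against 11834 and 13083. Tet2 itself was at 37.8 and 32.3 CPM in knockout libraries, against 67.2 and 65.9 in control libraries. UMIs were summed per mouse and leukocyte class, and a level is given as the gene's UMIs per 1000000 UMIs of that class (CPM). Between 272 and 303 cell barcodes were shared by each pair of libraries. An unnamed cluster of 54 cells held 5 of 5 tumour epithelial and 5 of 5 endothelial markers and was left out of the classes. The classes had different make-up by genotype: monocyte/macrophage-like cells were 10.2% and 12.2% of cells in knockout mice, against 55.9% and 61.1% in control mice, and NK-like cells with little Eomes were 59.1% and 58.6% of NK-like cells in knockout mice, against 8.24% and 25% in control mice. Sums within single clusters are therefore given beside the class sums. With 2 mice a group, an exact permutation test on 1 gene cannot give a p below 0.333, so the fits borrow a pooled spread from all genes of a class.

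The region just upstream of the start site is shown for the pair of receptors that make up the signalling complex, because their levels by genotype differ below, and for Smad3, which passed the threshold described below in myeloid classes only. TET enzymes act on cytosines followed by guanine, so those CG pairs are in capitals. The sequences are RefSeq's, in build GRCm38.p6, 250 bases up to the start site, read 5' to 3' on the gene's own strand.
Tgfbr1 (chr4:47352972-47353221, plus strand): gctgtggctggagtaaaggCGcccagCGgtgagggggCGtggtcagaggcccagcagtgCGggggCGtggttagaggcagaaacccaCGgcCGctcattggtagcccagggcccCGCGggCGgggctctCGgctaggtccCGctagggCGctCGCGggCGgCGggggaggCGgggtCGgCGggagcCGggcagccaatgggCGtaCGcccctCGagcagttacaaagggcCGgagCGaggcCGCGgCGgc
Tgfbr2 (chr9:116175364-116175613, minus strand): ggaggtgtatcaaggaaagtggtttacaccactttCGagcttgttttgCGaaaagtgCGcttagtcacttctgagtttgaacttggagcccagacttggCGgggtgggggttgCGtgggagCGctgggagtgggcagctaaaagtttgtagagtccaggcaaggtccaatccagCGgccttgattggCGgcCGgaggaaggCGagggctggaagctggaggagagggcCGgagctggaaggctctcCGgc
Smad3 (chr9:63757995-63758244, minus strand): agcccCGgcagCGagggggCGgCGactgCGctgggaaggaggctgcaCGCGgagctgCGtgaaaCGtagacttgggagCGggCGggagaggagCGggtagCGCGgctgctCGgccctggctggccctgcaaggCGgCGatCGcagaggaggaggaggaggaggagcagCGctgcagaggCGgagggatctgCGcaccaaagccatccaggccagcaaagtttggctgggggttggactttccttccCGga
The Tgfbr1 window held 29 CG pairs, more than 93.2% of the 32851 promoter windows in the table, whose median was 6. The Smad3 window held 22 (more than 85.2% of windows) and the Tgfbr2 window 12 (more than 66.5%), while the windows of Tgfb1 and Ski, not printed, held 21 and 53. The SMAD-binding motif CAGACA, searched on both strands, was in none of the 5 members' windows that the table holds and in 17.1% of all windows; DNA methylation was not measured in these libraries. In GRCm39, the build of the counts, Tgfbr1 spans chr4:47353134-47414931 (plus strand), Tgfbr2 chr9:115913361-116004800 (minus), Tgfbr3 chr5:107249402-107437623 (minus), Tgfb1 chr7:25386390-25404506 (plus), Smad3 chr9:63554049-63665476 (minus), Ski chr4:155238532-155307543 (minus) and Skil chr3:31148816-31176740 (plus).

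The members divided the leukocytes differently. Tgfb1 RNA was highest in monocyte/macrophage-like cells, at 386 ± 42.7 CPM (SD over 4 mice, as in all levels over both genotypes), and every mouse there was above every mouse of the next class, plasmacytoid dendritic-like cells, at 231 ± 87.7 CPM (3 mice). Plasma-like cells were lowest, at 63.6 ± 24.8 CPM, below CD8 T cells in every mouse. The 8 classes between overlapped their neighbours, from NK-like cells at 227 ± 30.7 CPM down to CD8 T cells at 147 ± 28.1 CPM.

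Tgfbr2, the ligand-binding receptor, had its highest means in B-like cells and in T cell classes other than Treg-like cells. It was at 196 ± 34.7 CPM in CD4 conventional T cells, 188 ± 8.87 in B-like cells, 167 ± 21.1 in gamma-delta T-like cells, 165 ± 7.09 in CD8 T cells and 147 ± 23.4 in plasmacytoid dendritic-like cells. None of these overlapped NK-like cells, at 99.4 ± 13.8 CPM, and the remaining classes ran from Treg-like cells (84.2 ± 9.24 CPM) through neutrophil-like (69.4 ± 11.5) and monocyte/macrophage-like cells (60.1 ± 15.1) to plasma-like cells (47.4 ± 22.1). Treg-like cells thus carried less Tgfbr2 RNA in every mouse, between 70.8 and 90.9 CPM, than CD4 conventional T cells, between 158 and 242 CPM.

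Tgfbr1 followed another order. Its mean level was highest in plasmacytoid dendritic-like cells (161 ± 100 CPM), neutrophil-like cells (92.4 ± 56.8) and monocyte/macrophage-like cells (90.4 ± 53.2) and lowest in CD8 T cells (32.9 ± 17.6), and the ranges of all neighbours in the order overlapped. Its wide spread within each class followed genotype, as described below. Tgfbr3 was mainly a T cell gene, at 22.6 ± 8.07 CPM in CD4 conventional T cells, 10.9 ± 2.70 in CD8 T cells and 9.92 ± 4.24 in gamma-delta T-like cells, and at 2.77 CPM or less on average in the other 8 classes. Treg-like cells held 0 Tgfbr3 UMIs in both knockout mice, which allows up to 10.9 and 6.44 CPM, and 1 UMI in each control mouse.

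Smad3 was at 96.6 ± 71.4 CPM in neutrophil-like cells, 53.8 ± 10.8 in NK-like cells and 51.1 ± 8.17 in gamma-delta T-like cells. Its neutrophil-like values followed genotype, at 166 and 149 CPM in knockout mice, against 48.6 and 22.7 in control mice. Those control values overlapped NK-like cells of control mice, at 64.2 and 42.8 CPM. CD8 T cells (21.1 ± 2.53 CPM) and B-like cells (20.4 ± 2.66) did not differ beyond their spread, conventional dendritic-like cells (9.62 ± 3.44) lay below B-like cells in every mouse, and plasma-like cells (4.14 ± 1.46) lay below those. Smad7 had a high and a low set of classes. CD8 T, CD4 conventional T, Treg-like, gamma-delta T-like, B-like, plasmacytoid dendritic-like and NK-like cells averaged between 171 and 122 CPM with overlapping ranges. Conventional dendritic-like cells, at 63.1 ± 9.81 CPM, lay below NK-like cells in every mouse, and neutrophil-like (40.4 ± 12.7), monocyte/macrophage-like (36.1 ± 8.18) and plasma-like cells (21.7 ± 11.8) followed.

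By the mean over both genotypes, the co-repressor genes had the same pair of classes at the top. Ski averaged 85.5 ± 58.1 CPM in neutrophil-like cells and 56.5 ± 9.69 in Treg-like cells, and Skil 211 ± 113 and 123 ± 21.6 CPM in those classes. The neutrophil-like spread followed genotype. Ski there was at 32.9 and 61.6 CPM in knockout mice, against 168 and 79.7 in control mice, with Treg-like cells between 45.1 and 68.5. Skil there was at 113 and 157 CPM in knockout mice, against 373 and 203 in control mice, with Treg-like cells between 102 and 151. Plasma-like cells were lowest for both, at 7.55 ± 3.20 CPM of Ski and 55.5 ± 10.2 CPM of Skil. B-like cells were low in Ski with little spread, at 13.2 ± 0.317 CPM.

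**Figure D1:**
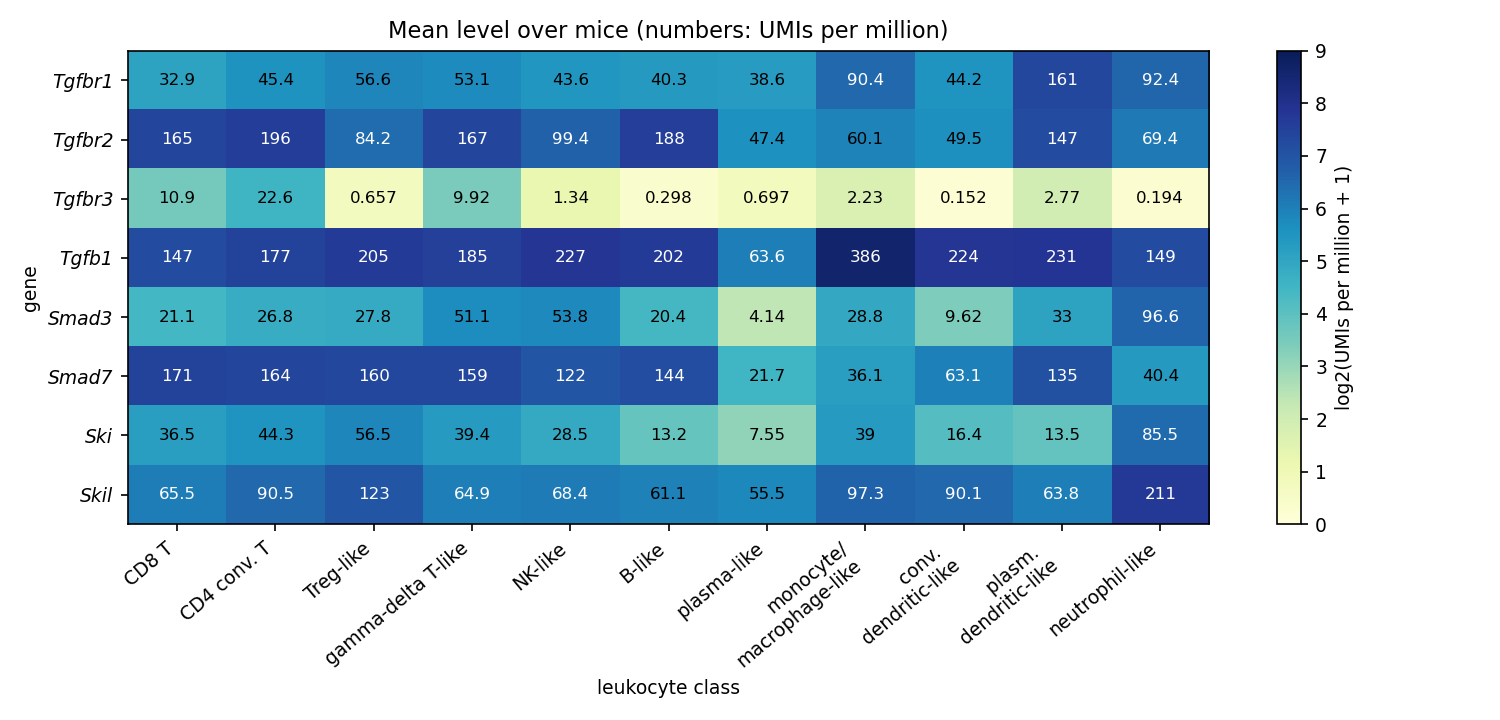
Mean level of each gene (rows) in each leukocyte class (columns) in CPM, over 4 mice, or 3 for plasmacytoid dendritic-like cells; the colour is log2 of the level plus 1. Tgfbr2 and Smad7 are darkest in lymphoid columns, Tgfb1 in monocyte/macrophage-like cells (386) and Skil in neutrophil-like cells (211).

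Over 43 points, each 1 class in 1 mouse, the members' levels on the log2(CPM + 1) scale were compared with each other and with all 7987 genes that averaged at least 10 CPM. The points share libraries and depth and pool both genotypes, so the Pearson correlations are descriptions. A difference by genotype, as described for Tgfbr1 below, enters them beside the order of the classes. Among members, Smad7 and Tgfbr2 were most alike (0.83), followed by Tgfbr3 and Tgfbr2 (0.65) and by Skil and Ski (0.60), while Tgfbr1 and Tgfbr2 were at 0.03. The genes most like Tgfbr1 were Il31ra (0.77), Dynlt1b (0.76) and Trim30d (0.73). Those most like Tgfbr2 were Zcchc7 (0.88), Pde7a (0.88) and Snhg8 (0.87), and those most like Tgfbr3 were Nsg2 (0.84), Trgc2 (0.80), a constant segment of the gamma T cell receptor, and Themis (0.80), a T cell signalling protein. Tgfb1 was most like Adam10 (0.88), which encodes a sheddase, then Mycbp2 and Api5 (0.81 each). Smad3 was nearest to Calm2, Dnm2 and Ptprc (0.86 each), the last encoding CD45, and Smad7 to Fam172a, Nup153 (0.91 each) and Prrc2c (0.90). Ski was nearest to Zswim6 (0.85), Tnfrsf1b (0.84) and Cd101 (0.81), and Skil to Adprh, N4bp1 (0.80 each) and Dot1l (0.78).

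By genotype, Tgfbr1 stood out among the members: it was higher in both knockout mice than in both control mice in all 7 classes that could be fitted, by 2.60-fold to 4.08-fold. In CD8 T cells it was at 51.8 and 43.8 CPM in knockout mice, against 16.7 and 19.3 CPM in control mice, a log2 fold change of 1.46 ± 0.19 (SE, as in all log2 fold changes). In CD4 conventional T cells it was at 74.0 and 62.8 CPM in knockout mice, against 26.1 and 18.6 CPM in control mice (1.72 ± 0.32). The groups were apart in both T cell classes, although the control values rested on 11 to 49 UMIs a mouse, against 73 to 340 in knockout mice.

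NK-like cells held 71.9 and 55.6 CPM of Tgfbr1 in knockout mice, against 22.9 and 23.9 in control mice (log2 fold change 1.38 ± 0.19), and B-like cells 67.0 and 54.3 CPM, against 22.1 and 17.9 (1.67 ± 0.21). Among myeloid classes, monocyte/macrophage-like cells held 152 and 117 CPM in knockout mice, against 50.5 and 41.8 in control mice (1.41 ± 0.14). Conventional dendritic-like cells held 63.2 and 77.3 CPM in knockout mice, against 19.8 and 16.4 in control mice (2.03 ± 0.20). Neutrophil-like cells held 131 and 151 CPM in knockout mice, against 53.8 and 34.6 in control mice (1.72 ± 0.29). In each genotype, monocyte/macrophage-like and neutrophil-like cells were above the 4 fitted lymphoid classes.

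The other 4 classes were not among those fitted and are described by level alone. Gamma-delta T-like cells held 89.3 and 75.7 CPM of Tgfbr1 in knockout mice, against 15.9 and 31.4 in control mice, and plasma-like cells 60.6 and 51.7 CPM, against 27.0 and 15.2. Plasmacytoid dendritic-like cells held 249 and 182 CPM in knockout mice, against 51.5 CPM in control mouse 2, the only control mouse with enough of them. Treg-like cells were the class where the genotypes lay closest, at 58.2 and 68.7 CPM in knockout mice, against 52.8 and 46.8 in control mice.

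**Figure D2:**
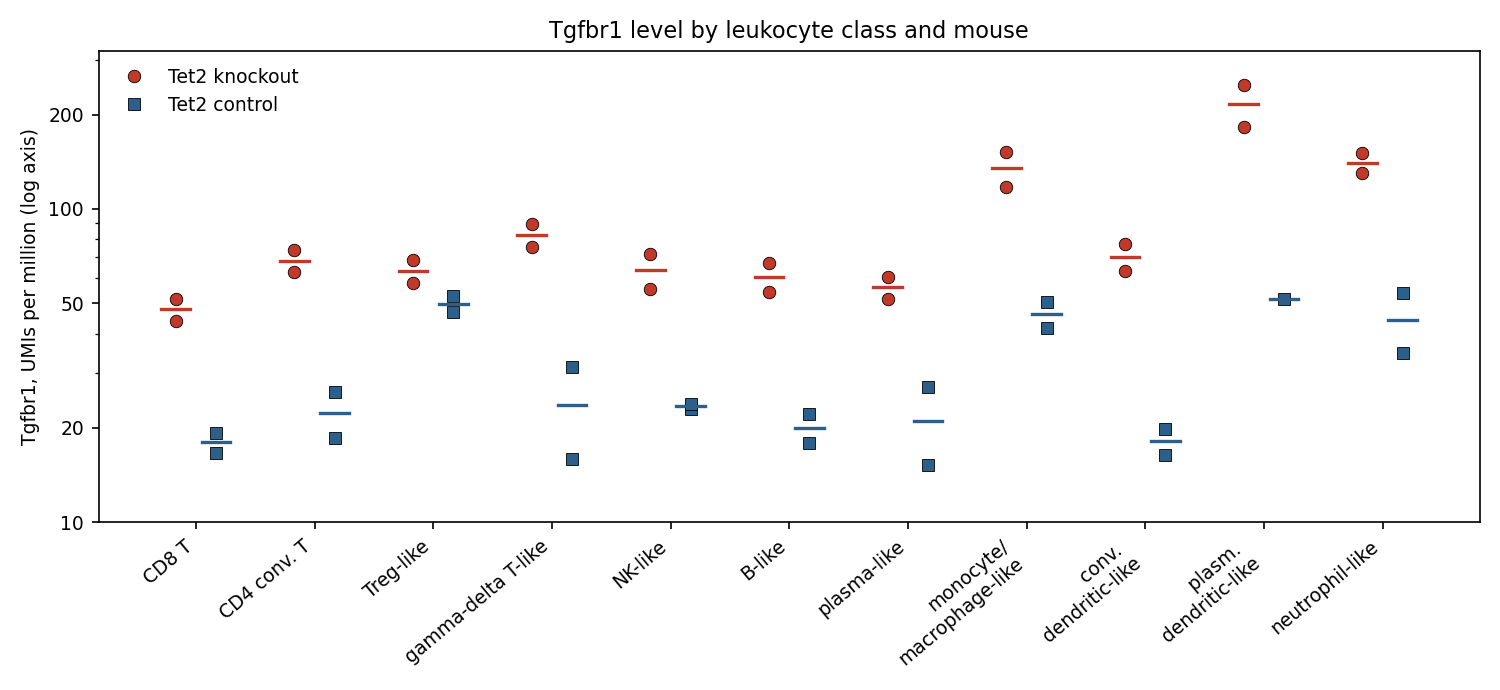
Tgfbr1 level in CPM, on a log axis, in each leukocyte class. Each point is 1 mouse (circles for Tet2 knockout, squares for Tet2 control) and bars are means; knockout mice lie above control mice in every class, with the smallest gap in Treg-like cells (58.2 against 52.8 for the nearest pair).

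Across all genes, a gene was called when its adjusted p in edgeR's quasi-likelihood test (Benjamini-Hochberg over all genes of the class) was under 0.05. Tgfbr1 passed that threshold, as a higher value in knockout cells, in 6 of the 7 classes, and the count is set beside the share of all genes called rather than read as a test, since genotype was in the rule. Called genes were 1.47% of genes tested in CD8 T cells (0.588% higher), 0.0395% in CD4 conventional T cells (0 higher), 3.87% in NK-like cells (2.29% higher) and 0.218% in B-like cells (0.0348% higher). They were 20.7% in monocyte/macrophage-like cells (9.75% higher), 9.77% in conventional dendritic-like cells (4.84% higher) and 4.93% in neutrophil-like cells (2.69% higher). CD4 conventional T cells, where Tgfbr1 did not pass, had 3 called genes of 7589 in all. Of the 6598 genes tested in every class, 0.909% were higher in both knockout mice in 7 of 7 classes, and 0.0152%, which is Tgfbr1 alone, were called higher in at least 6. That cut of 6 is Tgfbr1's own count. With 0 genes called higher in CD4 conventional T cells and 4 in B-like cells, at most 4 genes could reach it. The share is therefore no measure of how unusual Tgfbr1 is.

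Within single clusters the Tgfbr1 difference had the same direction in all 13 clusters or states fitted, with log2 fold changes between 0.75 and 2.00, and passed the threshold in 10; over the 13, between 0.0582% and 15.9% of all genes tested were called. In naive-like CD8 T cells it was at 51.3 and 41.2 CPM in knockout mice, against 18.7 and 22.7 in control mice (1.31 ± 0.32, not past the threshold), and in the remaining CD8 T cells at 51.9 and 44.6 CPM, against 15.6 and 18.8 (1.5 ± 0.20). In Eomes-expressing NK-like cells it was at 71.0 and 54.3 CPM in knockout mice, against 20.9 and 22.5 in control mice (1.52 ± 0.22). NK-like cells with little Eomes had the smallest difference, at 72.6 and 56.5 CPM in knockout mice, against 46.7 and 28.7 in control mice (0.75 ± 0.33, not past the threshold). Of the B-like clusters, cluster 16 was past the threshold (1.43 ± 0.23) and cluster 15 was not (1.83 ± 0.31), at 69.8 and 54.8 CPM in knockout mice, against 23.3 and 10.6 in control mice.

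The other receptors were called in fewer classes. Tgfbr2 was at 157 and 173 CPM in CD8 T cells of knockout mice, against 167 and 161 in control mice, with overlapping groups and a log2 fold change of 0.05 ± 0.16, and it overlapped likewise in CD4 conventional T, NK-like, B-like and conventional dendritic-like cells (−0.02 to 0.25). In neutrophil-like cells it was at 78.0 and 74.7 CPM in knockout mice, against 72.3 and 52.5 in control mice (0.35 ± 0.27, not past the threshold). In monocyte/macrophage-like cells it was at 72.3 and 74.0 CPM in knockout mice, against 47.6 and 46.4 in control mice (0.51 ± 0.11, past the threshold). Within clusters of that class this difference passed in cluster 6 alone (97.0 and 84.1 CPM in knockout mice, against 51.9 and 40.4 in control mice, 0.93 ± 0.21), it was −0.09 ± 0.25 in cluster 7, and the class result did not pass without either knockout mouse.

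Tgfbr3 passed the filter on low counts in CD8 T, CD4 conventional T and monocyte/macrophage-like cells alone. In CD8 T cells it was at 12.9 and 7.78 CPM in knockout mice, against 9.52 and 13.4 in control mice, with no separation (log2 fold change −0.08 ± 0.33). In CD4 conventional T cells it was at 20.7 and 13.8 CPM in knockout mice, against 33.2 and 22.6 in control mice (−0.57 ± 0.39, not past the threshold). In monocyte/macrophage-like cells the values were small, at 4.92 and 3.15 CPM (48 and 35 UMIs) in knockout mice, against 0.473 and 0.384 CPM (30 and 24 UMIs) in control mice, and apart (3.08 ± 0.35, past the threshold). Cluster 6, whose leading genes were Ace and Cd300e, held 43 and 24 of those UMIs in knockout mice, against 20 and 8 in control mice, and there Tgfbr3 was at 29.6 and 21.7 CPM in knockout mice, against 12.1 and 6.59 in control mice (1.39 ± 0.36). That cluster was 20.6% and 13.7% of monocyte/macrophage-like cells in knockout mice, against 3.60% and 2.43% in control mice. T cell markers, 7 of 7 detected in every mouse, summed to 46.5 and 36.0 CPM in monocyte/macrophage-like cells of knockout mice, against 7.66 and 7.87 in control mice, and their part in the Tgfbr3 difference was not tested. In conventional dendritic-like and neutrophil-like cells no knockout mouse had a Tgfbr3 UMI, which allows up to 0.700 and 0.650 CPM in dendritic-like and 1.52 and 3.93 CPM in neutrophil-like cells.

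Tgfb1, the ligand gene, passed the threshold in no class, with log2 fold changes between −0.41 and 0.40, and its groups overlapped in 5 of 7 classes. The lowest was in CD8 T cells, at 134 and 115 CPM in knockout mice, against 163 and 178 in control mice (−0.41 ± 0.16). In monocyte/macrophage-like cells, where its level was highest, it was at 428 and 329 CPM in knockout mice, against 407 and 380 in control mice (−0.19 ± 0.13).

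Smad3 was higher with the knockout in myeloid cells. In monocyte/macrophage-like cells it was at 38.9 and 42.2 CPM in knockout mice, against 18.8 and 15.2 in control mice (log2 fold change 1.12 ± 0.14, past the threshold). In neutrophil-like cells it was at 166 and 149 CPM in knockout mice, against 48.6 and 22.7 in control mice (2.21 ± 0.35, past the threshold). Conventional dendritic-like cells were lower in level and also apart, at 11.0 and 13.9 CPM in knockout mice, against 6.96 and 6.69 in control mice (0.94 ± 0.32, not past the threshold). In the fitted lymphocyte classes, each taken whole, the log2 fold changes were between −0.10 and 0.42 and none passed. Both knockout mice were above both control mice in CD8 T cells (21.5 and 24.5 CPM, against 19.4 and 18.9) and in CD4 conventional T cells (30.7 and 29.2 CPM, against 26.1 and 21.2), and the groups overlapped in NK-like cells (61.8 and 46.3 CPM, against 64.2 and 42.8) and B-like cells. The NK-like states had opposite signs. Smad3 was at 0.38 ± 0.22 within Eomes-expressing and −0.85 ± 0.31 within little-Eomes cells, past the threshold in neither.

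Ski went the other way. It was at 22.7 and 28.7 CPM in monocyte/macrophage-like cells of knockout mice, against 54.0 and 50.5 in control mice (log2 fold change −1.15 ± 0.15, past the threshold). Both knockout mice were also below both control mice in neutrophil-like cells (32.9 and 61.6 CPM, against 168 and 79.7, −1.39 ± 0.40), conventional dendritic-like cells (8.63 and 14.1 CPM, against 23.6 and 19.5, −0.84 ± 0.29), NK-like cells (20.6 and 20.2 CPM, against 29.6 and 43.5, −0.86 ± 0.22) and CD8 T cells (30.4 and 27.7 CPM, against 44.0 and 43.7, −0.55 ± 0.17), none of them past the threshold. B-like cells showed no such gap, at 13.0 and 13.6 CPM in knockout mice, against 13.1 and 12.9 in control mice (0.11 ± 0.23). Genes with both knockout mice below both control mice made up between 17.7% and 33.5% of genes tested in the 7 classes, and genes with both above between 17.6% and 42.6%, so separation in a single class is common.

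Skil was lower in neutrophil-like cells of knockout mice, at 113 and 157 CPM, against 373 and 203 in control mice (log2 fold change −1.05 ± 0.33, not past the threshold). In NK-like cells it was at 62.6 and 53.9 CPM in knockout mice, against 78.4 and 78.6 in control mice (−0.50 ± 0.15), and in CD8 T cells at 64.7 and 44.8 CPM, against 71.0 and 81.4 (−0.43 ± 0.20). Monocyte/macrophage-like cells overlapped, at 105 and 97.5 CPM in knockout mice, against 110 and 76.6 in control mice (−0.01 ± 0.16).

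Smad7, the inhibitory member, differed in NK-like cells, at 104 and 95.1 CPM in knockout mice, against 163 and 126 in control mice (log2 fold change −0.63 ± 0.15, past the threshold). That call held in 4 of 12 alternatives, and the log2 fold change was −0.68 ± 0.17 within Eomes-expressing and −0.27 ± 0.21 within little-Eomes cells, past the threshold in neither. In conventional dendritic-like cells Smad7 was at 74.7 and 67.1 CPM in knockout mice, against 58.4 and 52.3 in control mice (0.44 ± 0.15, not past the threshold). The other classes overlapped, with CD8 T cells at 179 and 160 CPM in knockout mice, against 206 and 139 in control mice.

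**Figure D3:**
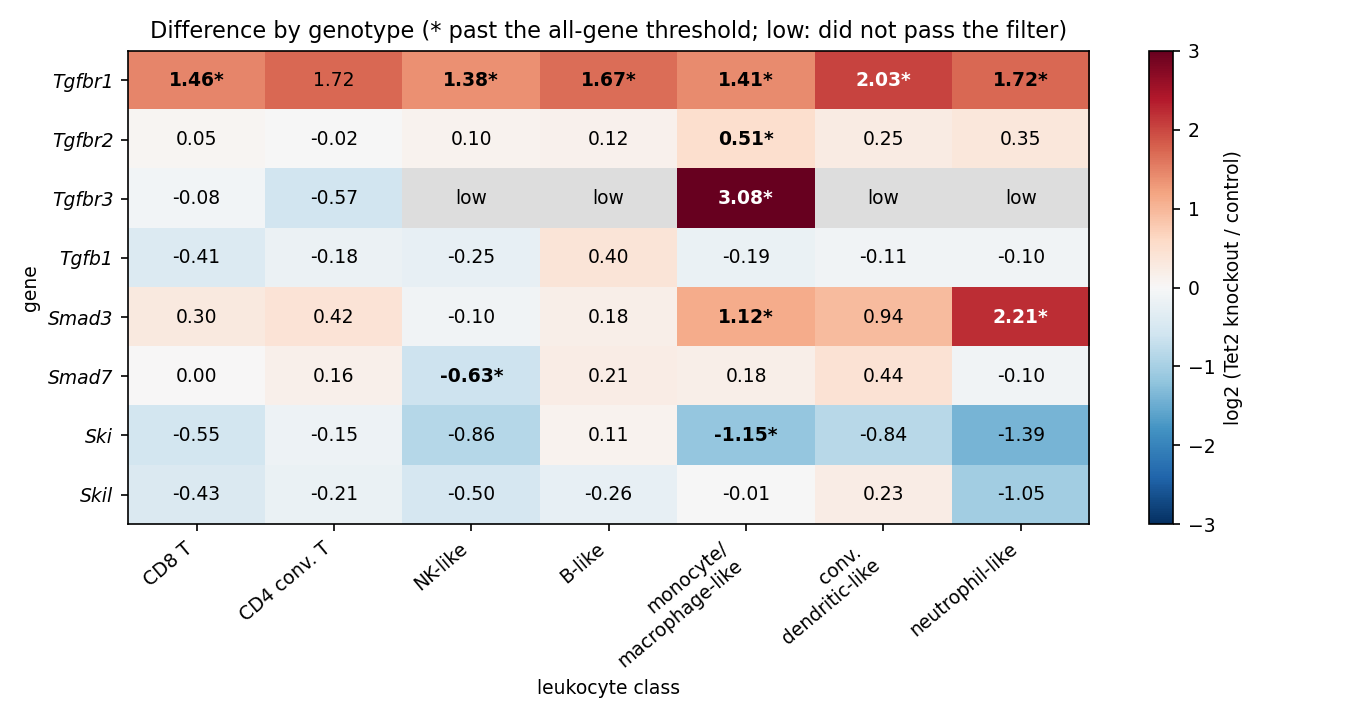
Log2 fold change, Tet2 knockout over control, of each gene (rows) in each class fitted (columns), from edgeR on UMI sums of 2 mice per genotype. Red is higher in knockout; a star marks a value past the threshold over all genes of the class and grey a gene under the filter on low counts. The Tgfbr1 row is red throughout (1.38 to 2.03), and Smad3 and Ski are opposite in colour in monocyte/macrophage-like cells (1.12 and −1.15).

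The myeloid differences were also read within single clusters, since the make-up of both myeloid classes differed by genotype. In the 5 monocyte/macrophage-like clusters, Tgfbr1 was past the threshold in all 5 (log2 fold changes 1.05 to 1.86), where 12.4%, 5.93%, 15.9%, 12.4% and 4.54% of all genes tested were called in clusters 1, 4, 5, 6 and 7. In cluster 1, led by Slc40a1 and Igf1, it was at 178 and 133 CPM in knockout mice, against 65.7 and 74.0 in control mice. In cluster 5, with Vcan and F13a1 among its top genes, it was at 107 and 98.7 CPM in knockout mice, against 32.1 and 23.2 in control mice.

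Smad3 and Ski were past the threshold, in opposite directions, in clusters 1, 4, 5 and 6 of the 5. In cluster 5 Smad3 was at 47.2 and 53.3 CPM in knockout mice, against 21.9 and 15.4 in control mice (1.40 ± 0.18), and Ski at 20.04 and 28.1 CPM, against 48.7 and 43.6 (−0.96 ± 0.18). In cluster 7, with Ms4a8a and Chil3 among its top genes, the values had the same directions and did not pass (Smad3 1.12 ± 0.51, Ski −0.91 ± 0.36). Chil3 and F13a1 were among the top genes of both clusters 5 and 7. Skil was between −0.14 and 0.20 in these clusters, past the threshold in none.

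Neutrophil-like cluster 20 made up 92.7% and 79.6% of neutrophil-like cells in knockout mice, against 29.1% and 18.0% in control mice, where cluster 27 held most of the class. Within cluster 20 alone, Tgfbr1 was at 135 and 132 CPM in knockout mice, against 30.1 and 25.3 in control mice (2.00 ± 0.26), and Smad3 at 182 and 187 CPM, against 73.2 and 29.2 (1.51 ± 0.32). Ski was at 33.8 and 47.1 CPM in knockout mice, against 129 and 79.9 in control mice (−1.71 ± 0.30), and Skil at 115 and 114 CPM, against 234 and 248 (−1.32 ± 0.21). These 4 genes were past the threshold within the cluster, where 12.5% of all genes tested were called, and their groups did not overlap.

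**Figure D4:**
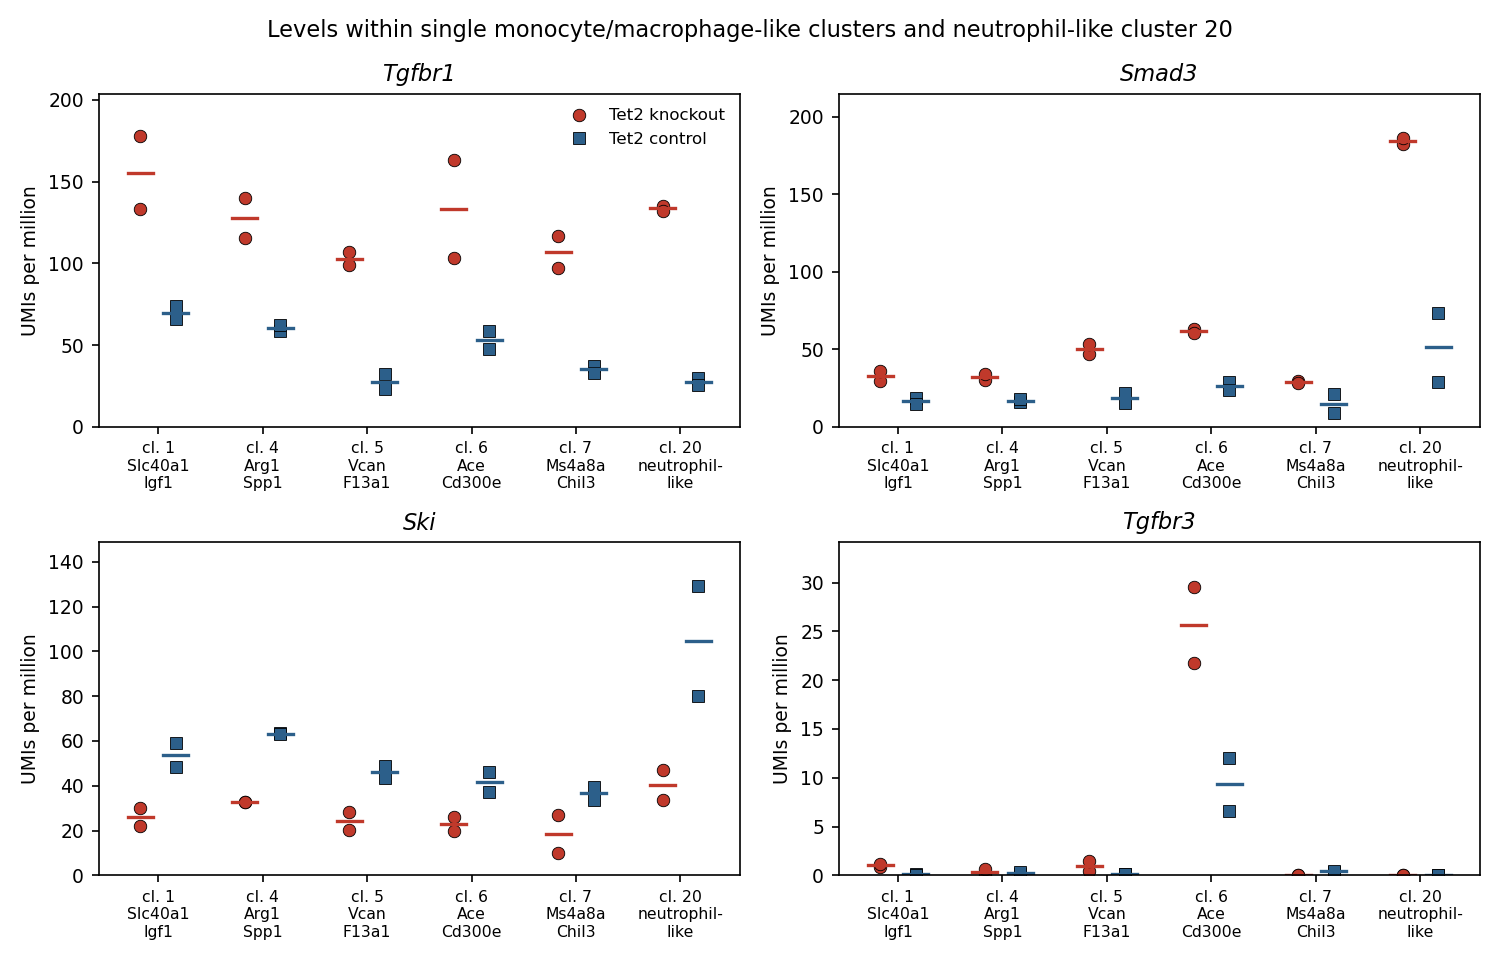
Levels of Tgfbr1, Smad3, Ski and Tgfbr3 in CPM within monocyte/macrophage-like clusters 1, 4, 5, 6 and 7 (cl., with some of their top genes) and neutrophil-like cluster 20. Circles are knockout mice, squares control mice and bars means. Tgfbr1 and Smad3 are higher and Ski lower in knockout mice in each cluster, and Tgfbr3 is seen mainly in cluster 6 (29.6 and 21.7 against 12.1 and 6.59).

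RNA released from other cells enters droplets, and its share was gauged from genes a class should lack. In the T cell, NK-like and B-like classes the C1q genes of macrophages stood at between 0% and 2.74% of their level in the whole library, and at that share free Tgfbr1 RNA would add up to 2.09 CPM. That gauge follows macrophage RNA alone and the next follows B cell RNA, so their shares are not comparable. In the fitted myeloid classes the B cell genes Cd79a, Cd79b and Ms4a1 stood at between 5.68% and 25.3% of the library level, which would correspond to between 3.58 and 16.7 CPM of Tgfbr1 and up to 23.0 CPM of Tgfbr2, 14.3 CPM of Ski and 6.56 CPM of Smad3. For Tgfbr3 it came to as much as 0.878 CPM, which is 133% of the level in 1 class of 1 mouse. In conventional dendritic-like cells, where levels were lowest, that came to as much as 54.6% of the Tgfbr1 level and 61.7% of the Smad3 level of a control mouse. B cell markers, 7 of 7 detected in every mouse, summed to 579 and 595 CPM in monocyte/macrophage-like cells of knockout mice, against 91.4 and 81.9 in control mice, and their part in the Tgfbr2 difference there was not tested.

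The rest of the pathway was read from 66 other genes in 7 lists: ligands, genes of latency and activation, other receptors, other SMADs, inhibitors and regulators, induced targets, and genes repressed by TGF-beta in T or NK cells. The counts here are from edgeR with adjustment over all genes of the class. The lists were chosen with earlier results of these data known. Calls and adjusted p-values of list genes by genotype are therefore given as descriptions. In CD8 T cells 38 of them were tested, 1 rose and 3 fell in knockout mice, in a class where 0.588% of genes rose and 0.878% fell, and the median log2 fold change of the 38 was −0.02, against −0.01 for all genes. Ldlrad4, an inhibitor that sequesters SMAD2 and SMAD3, fell to 55.3 and 57.9 CPM in knockout mice, against 117 and 131 in control mice (log2 fold change −1.08 ± 0.16, adjusted p = 0.0227). Itgav, the alpha-V integrin subunit that takes part in releasing latent ligand, fell to 47.5 and 53.3 CPM, against 90.9 and 146 in control mice (−1.18 ± 0.21, adjusted p = 0.0352). Ifng, interferon gamma, rose to 624 and 415 CPM, against 240 and 209 in control mice (1.25 ± 0.23, adjusted p = 0.0390). Tgfbi, an induced matrix protein gene that macrophages express strongly, fell to 0.152 and 0.569 CPM, against 3.97 and 8.65 in control mice (−4.05 ± 0.70, adjusted p = 0.0323).

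The Tgfbi value moved with macrophage RNA, since C1q genes in CD8 T cells were at 1.67 and 1.14 CPM in knockout mice, against 9.52 and 30.7 in control mice, and that RNA's part in it was not tested. CD8 T cells lay in different sub-clusters by genotype: sub-cluster 0 held 41.7% and 39.2% of them in knockout mice, against 11.5% and 5.03% in control mice, and sub-cluster 1 held 0.551% and 2.20%, against 13.6% and 56.2%. The Itgav call was lost within naive-like cells (−0.37) and within sub-cluster 5 (−0.32), and the Ldlrad4 call within naive-like cells (−0.60). The Ifng call did not hold outside the naive-like cells, and the value was −0.42 within sub-cluster 5. All 4 calls were lost without knockout mouse 1, and all but that of Ifng without knockout mouse 2. In CD4 conventional T cells 31 list genes were tested and 1 fell, where 0.0395% of all genes fell. That gene was Itgae, which encodes the integrin CD103 and is induced by TGF-beta. It was at 0.667 and 0 CPM in knockout mice, against 23.7 and 41.2 in control mice (−6.03 ± 0.72, adjusted p = 0.0441), and the call was lost when libraries were scaled by their totals. The class held 1499431 and 1163145 UMIs in knockout mice, against 421101 and 753044 in control mice, so these Itgae values rest on few UMIs. In control mouse 2 the largest clone held 66 of the 175 CD4 conventional T cells with a beta chain. Its part in the Itgae value was not tested.

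In NK-like cells 36 list genes were tested, 3 rose and 3 fell, where 2.29% of all genes rose and 1.58% fell, with a median of 0.05, against 0.01 for all genes. Pmepa1 and Ldlrad4, related inhibitors that the pathway induces, fell together, Pmepa1 to 8.18 and 9.26 CPM in knockout mice, against 27.9 and 36.5 in control mice (−1.91 ± 0.25, adjusted p = 0.00238). Ldlrad4 fell to 36.9 and 43.9 CPM, against 88.4 and 136 in control mice (−1.51 ± 0.21, adjusted p = 0.00415), and held in 12 of 12 alternatives. Bambi, a receptor-like inhibitor, rose to 51.9 and 63.8 CPM, against 34.9 and 23.2 in control mice (0.86 ± 0.21, adjusted p = 0.0481). The Bambi call was lost with DESeq2, without knockout mouse 2 and within Eomes-expressing cells (0.52), and the value was 2.76 within little-Eomes cells.

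Of the repressed list in NK-like cells, Tbx21, encoding T-bet, rose to 461 and 432 CPM, against 311 and 268 in control mice (0.55 ± 0.13, adjusted p = 0.0437), and Il2 to 14.9 and 10.6 CPM, against 2.66 and 4.21 (1.92 ± 0.40, adjusted p = 0.0238). Tbx21 was past the threshold within neither the Eomes-expressing nor the little-Eomes cells, and Il2 was at −0.31 within the little-Eomes cells. Tgfbi fell here as well (−3.60 ± 0.71, adjusted p = 0.0187), beside C1q genes at 3.95 and 0.817 CPM in knockout mice, against 10.3 and 35.1 in control mice. In B-like cells 32 list genes were tested and edgeR called 0, where it called 0.218% of all genes. Of the 32, 5 were at an unadjusted p under 0.05 and 2 were called by DESeq2.

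In monocyte/macrophage-like cells 49 list genes were tested, 8 rose and 10 fell, in a class where 9.75% of all genes rose and 11.0% fell, with a median of 0.05, against 0.01 for all genes. Of 7 latency and activation genes tested, 3 fell and 1 rose. Thbs1, encoding thrombospondin 1, which activates latent ligand, fell to 433 and 464 CPM in knockout mice, against 1063 and 1247 in control mice (−1.50 ± 0.15, adjusted p = 0.00145). Furin, the protease that cleaves the TGF-beta precursor, fell to 37.6 and 43.4 CPM, against 90.2 and 94.8 (−1.32 ± 0.13, adjusted p = 0.00161). Both were called in 14 of 15 alternatives, and lower but not called within cluster 7. Ltbp3, a latent TGF-beta binding protein gene, fell by 1.43 on the log2 scale, and Nrros, which anchors latent ligand on myeloid cells, rose by 0.44 (adjusted p = 0.0119 and 0.0421). Both calls were lost without either knockout mouse and within clusters 1 and 4, that of Ltbp3 also within cluster 5 (−0.57) and that of Nrros also within clusters 6 and 7.

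Of 7 induced targets tested in these cells, 3 fell and 0 rose, while the median log2 fold change of the 7 was 0.65, against 0.01 for all genes. Tgfbi fell to 606 and 672 CPM in knockout mice, against 1260 and 1163 in control mice (−1.05 ± 0.13, adjusted p = 0.00305), and Cdkn1a, encoding the cell cycle inhibitor p21, to 520 and 578 CPM, against 958 and 842 (−0.84 ± 0.14, adjusted p = 0.00741). Both calls were lost without knockout mouse 1 and within cluster 4, that of Tgfbi also within cluster 6 and that of Cdkn1a also within clusters 1, 5 and 7, where it was between −0.58 and −0.23.

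The remaining lists were mixed in monocyte/macrophage-like cells. Among inhibitors, Fkbp1a, whose product FKBP12 holds TGFBR1 inactive, fell to 164 and 169 CPM in knockout mice, against 281 and 294 in control mice (−0.92 ± 0.12, adjusted p = 0.00315), and Pmepa1 fell by 1.88 (adjusted p = 0.0182). The Pmepa1 call was lost without either knockout mouse and within clusters 1, 4 and 5, where it was between −1.5 and −0.83. Among other receptors, Eng, encoding the co-receptor endoglin, rose by 0.63 (adjusted p = 0.0290) and the activin receptor genes Acvr1 and Acvr2a fell by 0.68 and 0.57 (adjusted p = 0.0480 and 0.0470), each of these calls holding in at most 7 alternatives. Gdf11 rose by 2.11 (adjusted p = 0.0425), was under 1 CPM in every mouse and was called in 3 of 8 alternatives. All 5 tested genes of the list repressed in T or NK cells rose, among them Ifng (3.8 ± 0.32, adjusted p = 0.000950), S1pr1 (2.72 ± 0.29, adjusted p = 0.00173), Tbx21 (2.61 ± 0.33, adjusted p = 0.00312) and Gzmb (1.56 ± 0.35, adjusted p = 0.0222). The Gzmb call was lost with doublets kept. These 4 were each under 7 CPM in every mouse, and the NK marker list summed to 34.9 and 51.6 CPM in knockout mice, against 12.6 and 8.78 in control mice, beside the T cell markers given above. The part of such cells' RNA in these 4 values was not tested.

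Conventional dendritic-like cells had 40 list genes tested, 1 rose and 4 fell, where 4.84% of all genes rose and 4.93% fell (median 0.05, against 0.02 for all genes). Thbs1 fell to 3.97 and 3.25 CPM in knockout mice, against 84.1 and 46.8 in control mice (−4.10 ± 0.34, adjusted p = 0.000943), and did so in 10 of 10 alternatives. Its level was far higher in monocyte/macrophage-like cells, as given above. Those were 10.2% and 12.2% of cells in knockout mice, against 55.9% and 61.1% in control mice. The part of their RNA in the Thbs1 fall was not tested. Mmp14, a membrane protease that can release latent ligand, fell by 2.42, and Fkbp1a fell by 0.58 (adjusted p = 0.00816 and 0.0163). Klf2, a transcription factor gene of the repressed list, rose to 591 and 389 CPM, against 248 and 215 (1.16 ± 0.20, adjusted p = 0.0116).

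In neutrophil-like cells 33 list genes were tested, 1 rose and 3 fell, where 2.69% of all genes rose and 2.24% fell (median −0.09, against −0.07 for all genes). Id1, an inhibitor of differentiation, fell to 77.5 and 61.6 CPM in knockout mice, against 349 and 422 in control mice (−2.41 ± 0.29, adjusted p = 0.00681). Cdkn1a fell to 225 and 356 CPM, against 1778 and 1530 (−2.48 ± 0.31, adjusted p = 0.00681). Nrros rose to 272 and 240 CPM, against 91.8 and 70.6 (1.71 ± 0.27, adjusted p = 0.0102). The values of Id1, Cdkn1a and Nrros are for the whole class, whose make-up differed by genotype. Cluster 20 was 92.7% and 79.6% of it in knockout mice, against 29.1% and 18.0% in control mice. Inhba, a subunit gene of activin A, fell to 22.8 and 19.7 CPM, against 157 and 124 (−2.64 ± 0.29, adjusted p = 0.00496), and was at −0.91 and no longer called within cluster 20.

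Clone size in CD8 T cells gave a comparison that the choice of genes did not use. Cells were split by the number of cells that shared their T cell receptor beta chain, with at least 2 for expanded clones. Expanded and single cells numbered 695 and 451 in knockout mouse 1, 557 and 384 in knockout mouse 2, 89 and 387 in control mouse 1 and 316 and 227 in control mouse 2. The largest clone held 57 and 33 cells in knockout mice 1 and 2, 5 in control mouse 1 and 170 in control mouse 2. The expanded cells of control mouse 2 were thus mostly 1 clone. Within mice, 3 of the 8 members were called, 1 higher and 2 lower in expanded clones, in a comparison where 23.8% of the 9077 genes tested were called (12.4% higher, 11.4% lower).

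Tgfb1 was higher in expanded clones in 4 of 4 mice. It was at 165 CPM in expanded and 97.3 CPM in single cells of knockout mouse 1, and at 141 and 94.3 CPM in knockout mouse 2. In control mice 1 and 2 it was at 405 and 218 CPM in expanded cells, against 109 CPM in the single cells of each. With mouse as a block its log2 fold change was 0.75 ± 0.20 (edgeR, adjusted p = 0.0240). The gap was widest in the control mice, and single cells were between 94.3 and 109 CPM in all 4.

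Smad7 was lower in expanded clones in 3 of 4 mice, at 128 against 181 CPM in knockout mouse 2, 187 against 206 in control mouse 1 and 104 against 177 in control mouse 2, while knockout mouse 1 held 180 CPM in expanded and 168 CPM in single cells. Its log2 fold change was −0.60 ± 0.12 (edgeR, adjusted p = 0.00173). Tgfbr2 was lower in the same 3 mice, at 168 against 182, 135 against 167 and 155 against 171 CPM, with 160 against 155 CPM in knockout mouse 1 (−0.40 ± 0.10, adjusted p = 0.0105). Without the largest clone of each mouse, edgeR gave Tgfb1 at 0.81 (adjusted p = 0.0454), Smad7 at −0.54 (adjusted p = 0.00103) and Tgfbr2 at −0.41 (adjusted p = 0.00614).

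Naive-like sub-clusters made up 59.2%, 50.8%, 46.0% and 33.5% of single cells in knockout mouse 1, knockout mouse 2, control mouse 1 and control mouse 2, but 0.863% of expanded cells in knockout mouse 1 and 0 of 557, 0 of 89 and 0 of 316 in the others, which allows shares of up to 0.539%, 3.37% and 0.949%. Outside those sub-clusters Smad7 was still lower (−0.59, adjusted p = 0.00142), while Tgfbr2 was at −0.11 (adjusted p = 0.588) and Tgfb1 at 0.61 (adjusted p = 0.0979), and Tgfbr3 was called higher (1.67, adjusted p = 0.0125). Scaling by library totals moved the median of all genes to a log2 fold change of 0.30, against 0.01 with TMM factors, with 76.5% of genes above 0. On that scaling Smad7 was at −0.32 (adjusted p = 0.0816), Tgfbr2 at −0.11 (adjusted p = 0.413) and Tgfb1 at 1.04 (adjusted p = 0.00437).

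The other 5 members were not called between expanded and single cells. Tgfbr1 was at 56.1 against 46.2 CPM in knockout mouse 1, 39.9 against 46.7 in knockout mouse 2, 14.7 against 15.7 in control mouse 1 and 14.5 against 26.2 in control mouse 2 (−0.39 ± 0.16, adjusted p = 0.104), so that the genotypes stayed apart in both expanded and single cells. Ski was at −0.38 ± 0.15 (adjusted p = 0.0849), Tgfbr3 at 0.48 ± 0.28 (adjusted p = 0.248), Skil at 0.15 ± 0.15 (adjusted p = 0.513) and Smad3 at −0.13 ± 0.20 (adjusted p = 0.707).

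**Figure D5:**
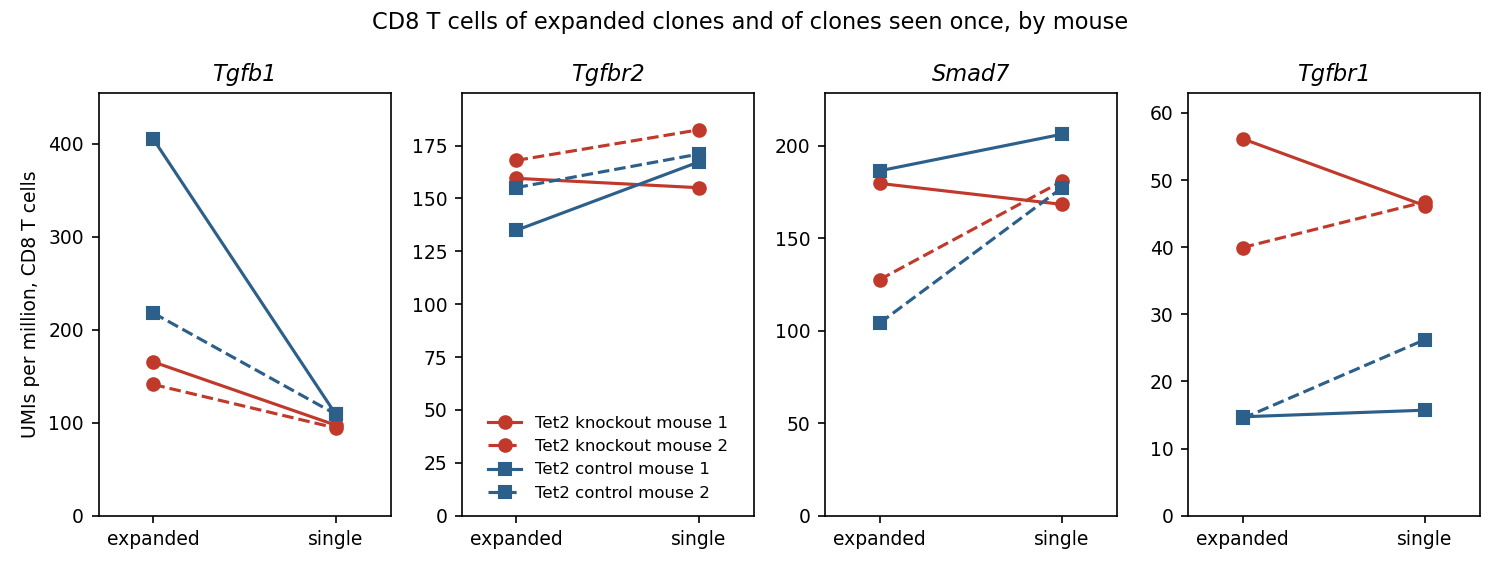
Tgfb1, Tgfbr2, Smad7 and Tgfbr1 levels in CPM in CD8 T cells of expanded clones and of clones seen once, 1 line per mouse (circles for knockout, squares for control). Tgfb1 is higher in expanded cells in every mouse, Smad7 and Tgfbr2 are lower in 3 of 4, and the Tgfbr1 lines of the genotypes stay apart.

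Of the 66 list genes, 30 were tested between expanded and single CD8 T cells. In expanded clones 7 rose and 11 fell, where 12.4% of all genes rose and 11.4% fell (median log2 fold change −0.15, against 0.01 for all genes). The genes repressed in T cells parted: S1pr1 and Klf2, genes of T cell recirculation, fell by 3.35 and 2.85 on the log2 scale, and Ifng and Tbx21 rose by 2.54 and 1.11, each in 4 of 4 mice and in 13 of 13 alternatives. Ifng was at 1123 against 151 CPM in knockout mouse 1, 773 against 89.4 in knockout mouse 2, 461 against 112 in control mouse 1 and 337 against 30.4 in control mouse 2 (adjusted p = 3.81e-05). Itgae rose to 74.6 and 72.9 CPM in expanded cells of knockout mice, against 36.2 and 27.1 in their single cells, and to 120 and 254 CPM in expanded cells of control mice, against 36.5 and 80.8 in theirs (1.15 ± 0.14, adjusted p = 1.85e-05).

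Of the other induced targets, Cdkn1a rose by 1.26 and Id3 fell by 2.33, both in 4 of 4 mice. Of the genes of latency and activation, Itgav rose to 73.6 and 89.0 CPM in expanded cells of knockout mice, against 21.6 and 17.2 in their single cells, and to 275 and 207 CPM in expanded cells of control mice, against 51.2 and 60.9 in theirs (1.79 ± 0.14, adjusted p = 2.45e-07), and Furin rose by 1.04. Among other SMADs, Smad1 fell by 2.43, Smad5 by 1.13 and Smad4, the shared partner of SMAD2 and SMAD3, by 0.82. Among inhibitors and regulators, the ubiquitin ligase genes Nedd4l and Smurf1 fell by 3.01 and 1.69, Ldlrad4 fell by 0.46 and Fkbp1a rose by 0.51. Ldlrad4 was at 51.4 against 58.8 CPM and 53.0 against 63.2 in knockout mice 1 and 2. In control mice 1 and 2 it was at 98.2 against 123 and 130 against 129. The values of this paragraph use TMM factors and all CD8 T cells. They therefore carry the difference in naive-like share and the dependence on scaling given above for the members.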

How the data were processed

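The 4 gene expression and the 4 T cell receptor libraries came from 2 knockout and 2 control mice. The authors deposited unscaled UMI counts for each gene and barcode, and contig tables with UMI counts and read counts per receptor contig; barcodes and gene names are the other deposited columns. Per the submitters' processing notes, Cell Ranger 8.0.1 and GRCm39 were used, with Seurat 5.0.1 and R 4.4.1 also named.

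Barcodes under 200 genes or over 10% mitochondrial UMIs were left out, and Scrublet doublets were removed per library (0.8% expected per 1000 cells). With scanpy 1.11.5, 2000 variable genes, 30 components and Leiden clustering at resolution 1 gave clusters named from at least 3 fixed markers. Lymphoid clusters were clustered again (20 components). Names are rebuilt, not the authors'. Counts were summed per mouse and class, and the 7 classes fitted had at least 30 cells in every mouse. The genotype fits used edgeR 4.0.16 (quasi-likelihood, robust, filterByExpr, TMM, Benjamini-Hochberg, 0.05) on the 4 sums of the class, and clone size in CD8 T cells was fitted with a block for mouse. A clone is a shared beta chain; CD4 T cells were not fitted, since control mouse 1 had 17 expanded cells, under the minimum of 20. Median UMIs per cell kept were 3719.5 and 3657 in knockout mice, against 6617 and 6204 in control mice. Floors are 3 counts, and cover counting error only. The labels call the mice biological replicates.

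Members and lists were chosen with earlier results of these data known. Pathway genes named are those called, at most 4 per list and class in order of p; genes most like a member are the 3 with the highest Pearson correlation. Promoters are RefSeq's (5 of 8 members matched, at the farthest upstream start where there were several). Positions are from GENCODE annotation of GRCm39. Alternatives were RLE factors, no filter on low counts, DESeq2 1.42.0, the replicate block, doublets kept, other clone definitions and leaving out each mouse. Chosen after seeing the data were fits within clusters, without the largest clone, outside naive-like cells and with library totals alone. Same-numbered mice correlated between -0.05 and 0.08 in their deviations from group means. Some list genes are not reported here.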

Additional observations from a re-analysis of the deposited data

Results flagged for a closer look

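Tgfbr3 had opposite separations by genotype in 2 classes: every knockout mouse was above every control mouse in monocyte/macrophage-like cells (log2 fold change 3.08) and below every control mouse in CD4 conventional T cells (−0.57). The difference between the classes was not tested. Smad7 did likewise, with both knockout mice above both control mice in conventional dendritic-like cells (0.44) and below them in NK-like cells (−0.63), and that difference was not tested. Of all genes tested, 42.6% had both knockout mice above both control mice in monocyte/macrophage-like cells and 23.8% in conventional dendritic-like cells, and 22.4% and 17.7% had both below in CD4 conventional T and NK-like cells.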

How the results depend on the processing

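The number of called genes moved with the setting. Without the filter on low counts it was 910 in CD8 T cells (main value 152), 281 in CD4 conventional T cells (3), 956 in NK-like cells (389), 65 in B-like cells (25), 1517 in conventional dendritic-like cells (967) and 1057 in neutrophil-like cells (435). DESeq2 gave 14 in CD4 conventional T cells, 204 in NK-like cells, 82 in B-like cells, 547 in conventional dendritic-like cells and 1287 for clone size (2157). The replicate numbers share only a number, and with them as a replicate block 371, 262, 937 and 197 genes were called in CD8 T, CD4 conventional T, NK-like and B-like cells; without the mouse block the clone size count was 1121. Scaling by library totals gave 0 in CD4 conventional T cells with edgeR (797 at an unadjusted p under 0.05) and 3298 for clone size, and shifted the median of all genes to 0.14 in monocyte/macrophage-like and −0.13 in neutrophil-like cells. Within parts of a class the counts were 4 in naive-like and 566 in the other CD8 T cells, 73 in Eomes-expressing and 187 in little-Eomes NK-like cells, 12 in B-like cluster 15, and 1339, 700, 1815, 975 and 393 in monocyte/macrophage-like clusters 1, 4, 5, 6 and 7 (2949). Outside naive-like cells clone size gave 1368.

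Leaving out 1 mouse gave between 81 and 2217 called genes in CD8 T cells, 36 and 937 in CD4 conventional T cells, 343 and 858 in NK-like cells, 54 and 1901 in B-like cells, 628 and 3334 in the monocyte/macrophage-like class, 225 and 1513 in conventional dendritic-like cells, 109 and 1690 in neutrophil-like cells and 1397 and 2326 for clone size. In CD8 T, CD4 conventional T, B-like, monocyte/macrophage-like and neutrophil-like cells the highest count was without control mouse 1. In these genotype fits the lone mouse of a genotype is assumed to vary like the others.

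Among called values and clone size, direction changed for Tgfbr2 and Nrros in monocyte/macrophage-like cluster 7 (−0.094 and −0.092), Acvr2a in cluster 4 (0.18), Ifng in CD8 sub-cluster 5 (−0.42), Il2 in little-Eomes NK-like cells (−0.31), and, for clone size, Smad3 with library totals (0.17) or with 1 mouse left out (−0.30 to 0.043) and Skil with 1 mouse left out (−0.060 to 0.30). Member values not called by genotype changed sign in 55 of 462 alternatives, among them Tgfb1 in CD8 sub-cluster 5 (0.17), Smad3 in Eomes-expressing NK-like cells (0.38) and Smad7 in neutrophil-like cluster 20 (0.64). By genotype, Tgfbr1 kept its direction in every alternative run, with log2 fold changes between 0.75 and 2.19. The clone size call was lost without a mouse block for Smad7 (adjusted p = 0.0523), Tgfbr2 (0.0766) and Tgfb1 (0.0675), for Tgfb1 also without control mouse 2 (0.269) and with clones defined by both chains (0.0563), and for Tgfbr2 without knockout mouse 2 (0.0702). The cause of these changes was not tested. Tgfbr1 in T cells of control mice and Tgfbr3 outside T cells rest on few UMIs, and with 2 mice a genotype the calls rest on the pooled spread.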
